A study of Mus musculus with 24 samples.

Results

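10 transcription factor genes that define the lineage and effector types of invariant natural killer T (iNKT) cells were followed across 24 RNA-seq libraries of iNKT cells from the mesenteric lymph nodes. The members were taken by name, with no threshold on a measured value, though earlier results of these data were known when they were chosen: Zbtb16, Tbx21, Gata3, Eomes, Bcl6, Maf, Id2, Id3, Prdm1 and Bhlhe40. All 10 were found among the 55335 genes of the deposited table, and all 10 were among the 15953 genes with enough counts to be tested. The mice were C57BL/6J in every group. Their dams had received a fecal transplant (FT), with CD1d-knockout donors for the KO FT mice and wild-type donors for the WT FT mice. They received 2 µg alpha-galactosylceramide (aGC), a glycolipid that CD1d presents to iNKT cells, in 200 µL PBS by oral gavage, or the same volume of PBS, and cells were sorted 24 h later. The groups were aGC KO FT, aGC WT FT, PBS KO FT and PBS WT FT, each split into females and males with 3 libraries, which made 8 groups. The labels attach the knockout to the transplant donor and not to the sorted cells. They give no age, sort gate or number of mice per library, and donor, dam, litter and cage cannot be told apart.

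iNKT cells carry a semi-invariant T cell receptor for lipids on CD1d and acquire an innate-like effector programme in the thymus under PLZF, the product of Zbtb16. T-bet (Tbx21), GATA3 and ROR gamma t mark the interferon gamma, interleukin 4 and interleukin 17 producing types, BCL6 is needed for follicular helper-like iNKT cells, and Blimp-1 (Prdm1) and BCL6 repress each other's genes in other lymphocytes. The proteins ID2 and ID3 lack a DNA-binding domain and hold E proteins off DNA, c-MAF (Maf) is linked to interleukin 10, interleukin 21 and interleukin 17 production in T cells, and BHLHE40 supports cytokine production by T helper cells and represses Il10 in them.

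Promoter sequence of 3 members is shown because these genes gave the largest response to aGC (Eomes) or moved in opposite directions (Bcl6 and Prdm1). The windows are the 250 bases before a transcription start, 5′ to 3′ on the gene's strand, from RefSeq on GRCm38.p6; 7 of the 10 members matched that table, all but Zbtb16, Maf and Bhlhe40, and Bcl6 had 2 starts. The windows lie at chr9:118477939-118478188 (plus strand) for Eomes, chr16:23988853-23989102 and chr16:23981284-23981533 (minus strand) for Bcl6, and chr10:44458749-44458998 (minus strand) for Prdm1. The second Bcl6 window and the Prdm1 window lie in introns of these genes, and none of the 4 windows holds exon or UTR bases of the annotation. Capitals mark matches to CACGTG (the E-box that BHLHE40 binds) and TTCNNNGAA (a BCL6 motif) in the Bcl6 windows, and to TGANTCA (AP-1) in the Prdm1 window.
Eomes: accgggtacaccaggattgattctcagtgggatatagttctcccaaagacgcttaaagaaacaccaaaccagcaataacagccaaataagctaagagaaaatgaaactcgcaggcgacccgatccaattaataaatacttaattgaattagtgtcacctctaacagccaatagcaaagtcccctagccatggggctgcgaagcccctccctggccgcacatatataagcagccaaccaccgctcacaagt
Bcl6 start 1: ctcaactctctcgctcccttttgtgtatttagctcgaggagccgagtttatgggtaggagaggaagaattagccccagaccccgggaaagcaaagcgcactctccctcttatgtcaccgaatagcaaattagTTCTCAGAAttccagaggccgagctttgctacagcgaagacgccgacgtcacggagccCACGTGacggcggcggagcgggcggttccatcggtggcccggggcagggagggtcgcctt
Bcl6 start 2: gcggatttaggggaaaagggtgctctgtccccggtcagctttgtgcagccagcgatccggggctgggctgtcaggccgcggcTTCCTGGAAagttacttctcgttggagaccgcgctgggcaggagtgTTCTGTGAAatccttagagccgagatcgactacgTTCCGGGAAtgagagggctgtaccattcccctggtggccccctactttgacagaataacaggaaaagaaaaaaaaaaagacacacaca
Prdm1: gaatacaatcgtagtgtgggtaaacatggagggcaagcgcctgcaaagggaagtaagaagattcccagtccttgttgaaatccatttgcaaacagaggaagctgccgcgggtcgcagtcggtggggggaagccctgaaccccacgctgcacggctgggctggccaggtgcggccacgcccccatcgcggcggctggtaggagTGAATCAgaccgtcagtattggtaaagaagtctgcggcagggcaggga

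7 motifs were searched on both strands in the windows of the 7 matched members: CANNTG for E proteins, CACGTG for BHLHE40, AGATAA for GATA factors, AGGTGNGA for T-box factors, TTCNNNGAA for BCL6 and STAT factors, TGANTCA for AP-1 and GGAAA as the NFAT core. CACGTG is also counted as CANNTG. Among 32851 mouse promoter windows of this length, CACGTG was found in 6.02%, TTCNNNGAA in 7.02%, TGANTCA in 6.75%, AGGTGNGA in 4.66%, AGATAA in 9.99%, GGAAA in 55.6% and CANNTG in 66.2%. Start 1 of Bcl6 held CACGTG 60 bases and TTCTCAGAA 118 bases before the start, and start 2 held 3 matches to TTCNNNGAA. The Prdm1 window held TGAATCA 48 bases before the start and 2 matches to CANNTG. In the windows of Eomes and Id3 none of the 7 motifs was found. A match is a string of letters and not a measured binding site.

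Sequencing depth was 9764931 to 37016768 estimated counts per library. Levels are in CPM, counts scaled to the TMM library size. A gene without a count could stand at up to 0.081 to 0.307 CPM, where counting error alone is considered. That is the level of 3 counts over the total counts of a library, without the TMM factor. The label iNKT was checked against the invariant receptor: Trav11 stood at 325 to 880 CPM and Traj18 at 46.5 to 117 CPM in all 24 libraries. The libraries nevertheless fell into 2 sets by conventional CD8 T cell genes, and the sets crossed sex and treatment. Cd8b1 stood at 309 to 394 CPM in aGC females and 253 to 574 CPM in PBS males, but at 6.36 to 12.9 CPM in aGC males and 9.08 to 11.4 CPM in PBS females, of both FTs. The summed level of the 4 CD8 T cell markers was 770 to 1163 CPM in the first set and 192 to 344 CPM in the second, and that of 10 naive T cell markers 2857 to 4081 and 1381 to 1912 CPM. No marker of either list was at 0. Within a sex, then, aGC against PBS compared Cd8-high with Cd8-low libraries in females and the reverse in males, while the mean over the sexes weighted the 2 sets equally; it is used below for the main tests, with within-sex values beside it. That mean did not level the markers fully: of the 4 CD8 markers Cd8a rose with aGC and Cd8b1 and Ccr9 fell in KO FT (log2 0.51, -0.23 and -0.19), while Ccr9, Itgae and Cd8b1 fell in WT FT (-0.77, -0.44 and -0.12). In KO FT and WT FT, 7 and 8 of the 10 naive markers were lower with aGC. Between the FTs Cd8a differed by -0.66 after PBS (KO FT over WT FT), mostly through the males, and by -0.05 after aGC. The same contrasts were also made in Cd8-low libraries alone (aGC males over PBS females) and Cd8-high libraries alone (aGC females over PBS males), which mixes sex with treatment. For the FTs within a treatment, each set holds a single sex and repeats the comparison within that sex. Cd8-low libraries are males after aGC and females after PBS, and Cd8-high libraries are the reverse. In bulk RNA, fewer cells of a type and less RNA per cell cannot be told apart.

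**Figure D1:**
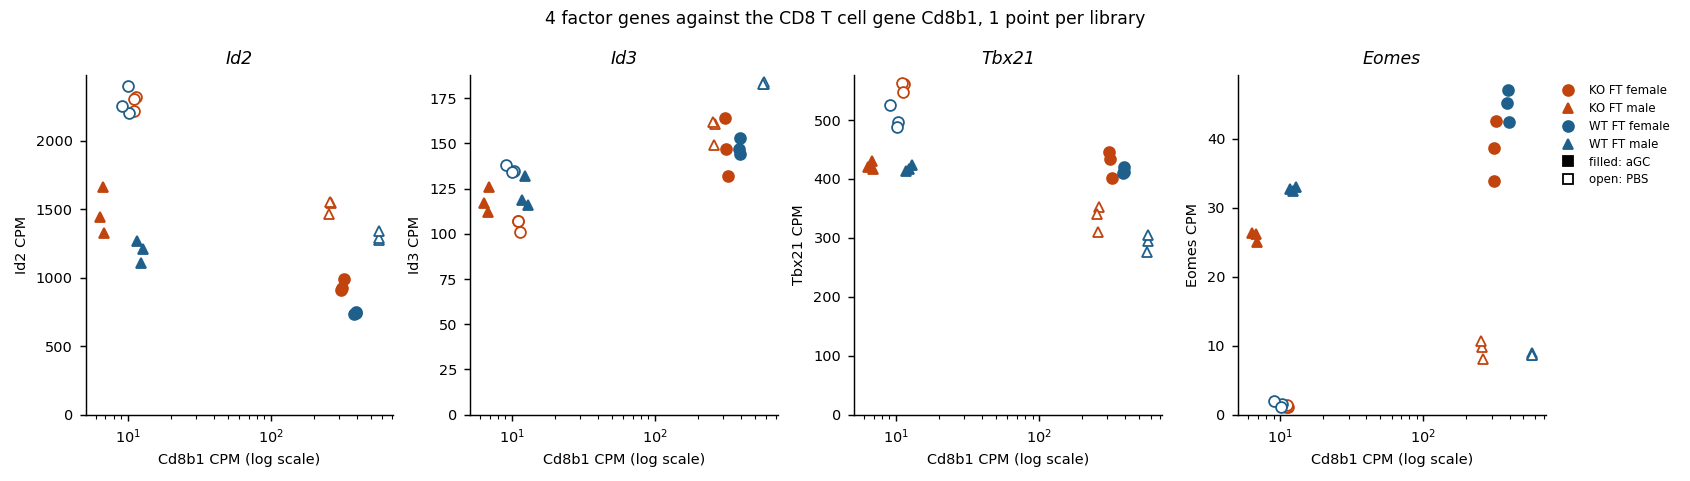
Level of Id2, Id3, Tbx21 and Eomes (CPM, linear axis) against that of Cd8b1 (CPM, log axis) in each of the 24 libraries, filled for aGC and open for PBS. The Cd8-high libraries (253 to 574 CPM Cd8b1) are aGC females and PBS males of both FTs. Eomes was at 25 CPM or above in all aGC libraries on either side of this split, while Id2 was highest in the Cd8-low PBS females.

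Markers of other cell types were also summed. Those of NK and ILC1 cells stood at 10.8 to 27.1 CPM, of myeloid and dendritic cells at 17.2 to 90.4 CPM, and of ILC2 and ILC3 cells at 15.9 to 57.6 CPM. The 10 B cell markers summed to 454 to 717 CPM after aGC and 970 to 1074 CPM after PBS, nearly all of it Ighm, while Pax5 was at 0 in the 12 male libraries. The 6 regulatory T cell markers summed to 195 to 245 CPM after aGC and 85.8 to 106 CPM after PBS, most of it Il2ra, which activated T cells also express; Foxp3 was at 0 in PBS KO FT females. The part of these cells in the results was not tested. Nothing in the labels ties the 3 libraries of a group to different animals. The p-values below therefore rest on library-to-library spread, which may be technical.

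aGC moved the 10 factors in different directions. Eomes and Bhlhe40 were higher and Prdm1 was lower with aGC in each of the 4 groups by FT and sex, Zbtb16 was lower in 3 of the 4, and Id2 was lower in females of both FTs, with no call in males. Averaged over the sexes, 4 members rose, 3 fell and 3 did not pass in KO FT mice (edgeR's quasi-likelihood test, Benjamini-Hochberg adjusted p under 0.05), where 58.1% of all tested genes were called, 28.1% higher and 30.1% lower. In WT FT mice 5 rose and 5 fell, where 68.4% were called, 30.9% higher and 37.5% lower. The 7 of 10 in KO FT stood near the background, and the 10 of 10 in WT FT somewhat above it. Over all libraries of an FT, aGC and PBS did not overlap for Eomes and Bhlhe40 in KO FT and for these and Zbtb16, Id2 and Prdm1 in WT FT, where 23.3% and 33.4% of tested genes were so separated. Genes called higher in all 4 groups by FT and sex made up 10.6% of those tested, and genes called lower in all 4 made up 6.86%. Tbx21 was called in opposite directions in females and males under both FTs, and Maf and Id3 were so in KO FT; genes called in opposite directions made up 9.15% in KO FT and 8.61% in WT FT. The median absolute log2 change of the members was 0.52 in KO FT and 0.63 in WT FT, against 0.44 and 0.60 over all tested genes. With the 3 libraries of each group summed to 1 profile, so that the sexes served as the replicates, Bhlhe40 in WT FT was the only member to pass (adjusted p = 0.00692), and no member passed in KO FT or in either comparison of the FTs. Of the 15953 tested genes this fit called 306 higher and 25 lower in KO FT, and 1179 higher and 439 lower in WT FT. It called none of them in either comparison of the FTs, so the absence of members there says nothing particular about them.

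**Figure D2:**
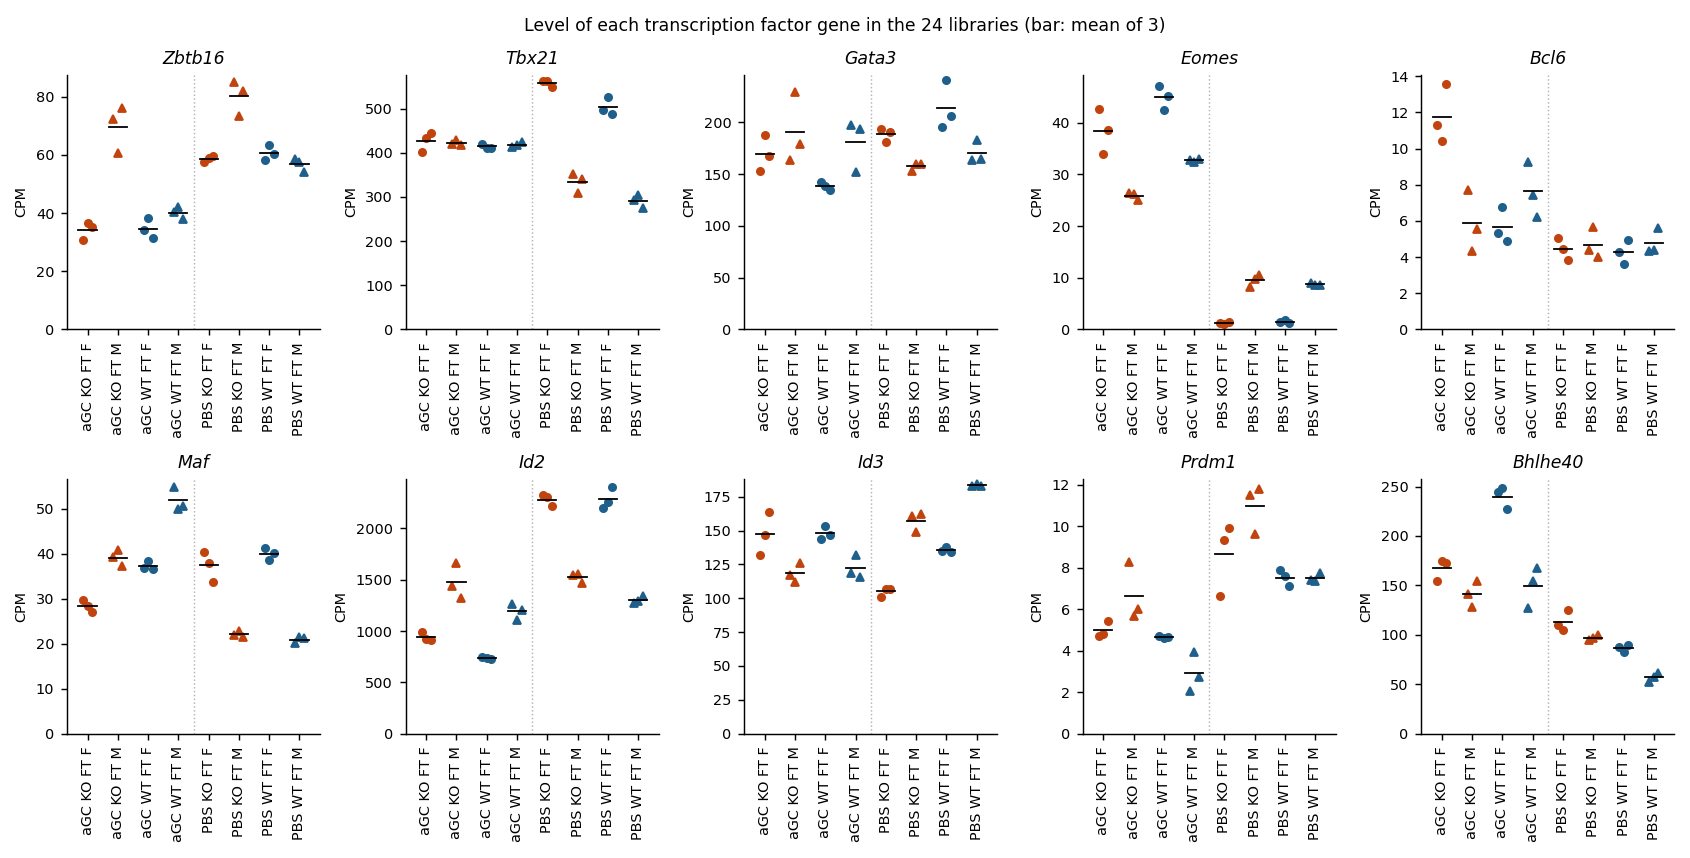
Level of each of the 10 transcription factor genes (CPM, linear axes from 0) in the 24 libraries, by treatment, FT and sex (F, female; M, male), with points for libraries and bars for the mean of 3. The aGC groups stand left of the dotted line and the PBS groups right of it; for Eomes and Bhlhe40 every aGC library lay above every PBS library.

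**Figure D3:**
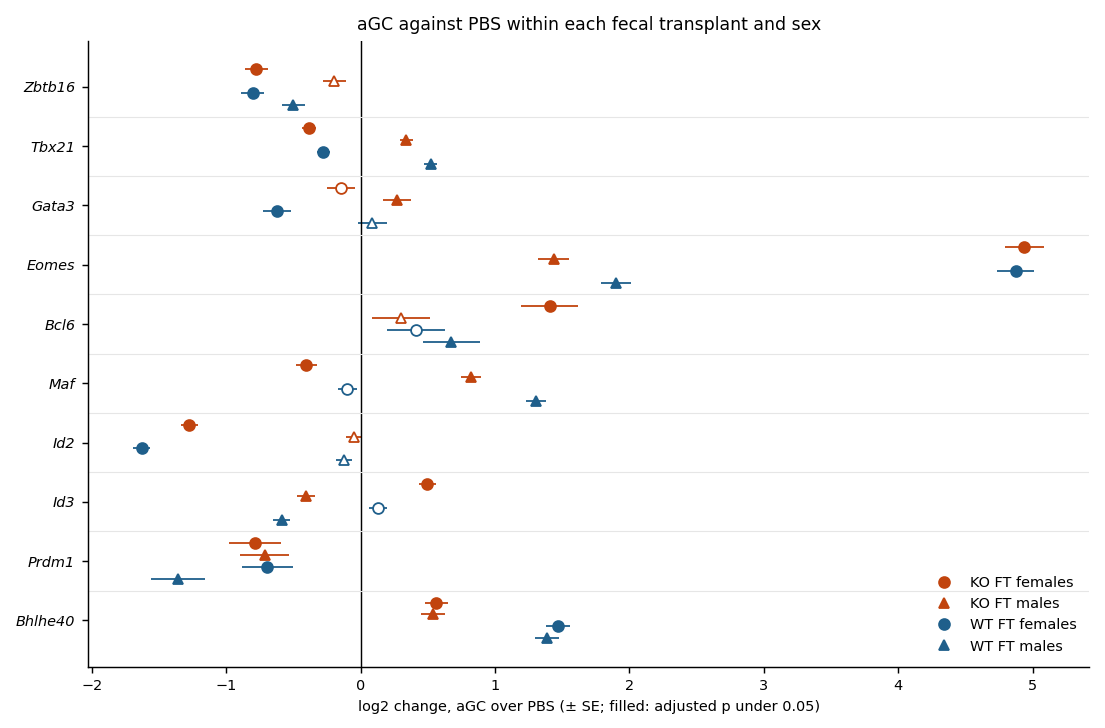
Log2 change of each gene for aGC over PBS (± SE) within KO FT females, KO FT males, WT FT females and WT FT males, filled where the adjusted p was under 0.05. Eomes lay between 1.44 and 4.94 and Prdm1 between -1.36 and -0.70 in the 4 groups. Tbx21, Maf, Id3 and Gata3 took opposite signs in females and males, though only for Tbx21 were all these values called.

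Zbtb16 (ENSMUSG00000066687.5, chromosome 9, 48654297 to 48836222, GRCm38) encodes PLZF, the factor that sets up the innate-like programme of iNKT cells. Zbtb16 levels in KO FT females were 30.8, 36.5 and 35.1 CPM after aGC, against 57.4, 58.9 and 59.5 CPM after PBS. For WT FT females the levels were 34.3, 38.4 and 31.3 CPM after aGC, against 58.4, 63.5 and 60.2 CPM after PBS. In females the treatments did not overlap under either FT. Zbtb16 in KO FT males stood at 72.4, 60.8 and 76 CPM after aGC, against 84.9, 73.5 and 82.1 CPM after PBS, and these libraries overlapped. WT FT males had 40.3, 42 and 38 CPM after aGC, against 58.7, 57.6 and 54.1 CPM after PBS, with no overlap. Averaged over the sexes the log2 change was -0.49 ± 0.06 (SE) in KO FT mice (adjusted p = 3.07e-07) and -0.65 ± 0.06 in WT FT mice (adjusted p = 1.74e-09), while KO FT males alone did not pass (-0.20 ± 0.08, adjusted p = 0.0541). In Cd8-low libraries alone the KO FT change was positive, at 0.26 ± 0.08 (adjusted p = 0.0132), and in Cd8-high libraries it was -1.21 ± 0.09 (adjusted p = 4.39e-08), whereas WT FT gave -0.59 and -0.69. KO FT mice had more Zbtb16 than WT FT mice after aGC (log2 0.39 ± 0.06, adjusted p = 1.78e-05) and after PBS (0.22 ± 0.06, adjusted p = 0.0072). By sex these differences passed in males, at 0.80 after aGC and 0.49 after PBS (adjusted p = 1.08e-07 and 6.62e-05), and not in females, at -0.02 and -0.05. The 2 male groups include the Cd8-low libraries after aGC and the Cd8-high ones after PBS. Whether the sexes differed in this was not tested.

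Tbx21 (ENSMUSG00000001444.2, chromosome 11, 97098071 to 97115331) encodes T-bet, which drives interferon gamma production and the NK receptor programme of iNKT1 cells. After aGC the 12 libraries lay close together: KO FT females had 402, 434 and 446 CPM and KO FT males 420, 430 and 417 CPM. WT FT females had 421, 412 and 411 CPM and WT FT males 414, 417 and 424 CPM. The PBS libraries lay on either side of them. Tbx21 after PBS was 562, 563 and 548 CPM in KO FT females and 496, 526 and 488 CPM in WT FT females, above every aGC library. PBS males had 353, 310 and 340 CPM under KO FT and 294, 305 and 276 CPM under WT FT, below every aGC library. Tbx21 therefore fell with aGC in females (log2 -0.38 ± 0.05 in KO FT and -0.28 ± 0.05 in WT FT, adjusted p = 4.78e-07 and 3.35e-05) and rose in males (0.34 ± 0.05 and 0.52 ± 0.05, adjusted p = 3.35e-06 and 2.01e-09). The high and low PBS groups are also the Cd8-low and Cd8-high ones, and the part of that split was not tested. Within Cd8-low libraries the change was -0.39 in KO FT and -0.26 in WT FT, and within Cd8-high libraries it was 0.37 and 0.53, all of which passed. The mean over the sexes was -0.02 ± 0.04 in KO FT (adjusted p = 0.606) and 0.12 ± 0.04 in WT FT (adjusted p = 0.00335). KO FT against WT FT gave 0.17 ± 0.04 after PBS (adjusted p = 0.000658), with the KO FT libraries above the WT FT ones in both sexes, and 0.03 ± 0.04 after aGC (adjusted p = 0.521).

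Gata3 (ENSMUSG00000015619.10, chromosome 2, 9857078 to 9890034) is needed for T cell development and for interleukin 4 producing cells, and it varied least of the 10 over the groups, with 1.54-fold between the highest and the lowest group mean. KO FT females had 153, 188 and 168 CPM after aGC, against 194, 181 and 191 CPM after PBS, and KO FT males had 164, 229 and 179 CPM after aGC, against 153, 160 and 160 CPM after PBS. WT FT females were the lowest group after aGC, with 142, 139 and 135 CPM, against 196, 241 and 206 CPM after PBS. WT FT males had 198, 152 and 194 CPM after aGC, against 164, 183 and 165 CPM after PBS, which overlapped. Gata3 fell with aGC in WT FT mice (log2 -0.27 ± 0.07, adjusted p = 0.00279) through the females, at -0.63 ± 0.11 (adjusted p = 2.06e-05), while the males gave 0.09 ± 0.11 (adjusted p = 0.471). In KO FT mice the mean change was 0.06 ± 0.07 (adjusted p = 0.51), with a rise of 0.27 ± 0.11 in males (adjusted p = 0.0346) that became 0.12 (adjusted p = 0.336) without aGC KO FT male replicate 2. The WT FT call was not reached in Cd8-low libraries alone (-0.23, adjusted p = 0.108). KO FT against WT FT gave 0.18 ± 0.08 after aGC (adjusted p = 0.0461), a call lost in 17 of the 24 omissions of a single library. The weakest value was 0.098 (adjusted p = 0.238), without aGC KO FT male replicate 2. The call was also lost in Cd8-low libraries alone, which after aGC are the males (0.07, adjusted p = 0.652). After PBS the FTs gave -0.15 ± 0.07 (adjusted p = 0.14).

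Eomes (ENSMUSG00000032446.14, chromosome 9, 118478212 to 118486132) encodes a T-box factor of cytotoxic and memory T cells and NK cells and gave the largest change of the 10. In KO FT females it stood at 42.6, 33.9 and 38.6 CPM after aGC, against 1.16, 1.06 and 1.45 CPM after PBS. In WT FT females the values were 47, 42.4 and 45.2 CPM after aGC, against 1.49, 1.9 and 1.15 CPM after PBS. Every PBS female library thus stood at 1.9 CPM or below. In males Eomes stood at 26.3, 26.2 and 25 CPM under KO FT and 32.7, 32.4 and 33 CPM under WT FT after aGC, against 8.13, 9.84 and 10.6 CPM and 8.95, 8.65 and 8.67 CPM after PBS. All 12 aGC libraries lay above all 12 PBS libraries, and all 6 PBS male libraries lay above all 6 PBS female libraries. The rise was 9.11-fold in KO FT (log2 3.19 ± 0.09, adjusted p = 1.33e-18) and 10.5-fold in WT FT (3.39 ± 0.09, adjusted p = 9.2e-20), averaged over the sexes. By sex it was 30.7-fold and 29.3-fold in KO FT and WT FT females and 2.71-fold and 3.73-fold in KO FT and WT FT males, and the female response exceeded the male one by 3.50 ± 0.19 and 2.98 ± 0.18 on the log2 scale (adjusted p = 8.85e-13 and 4.42e-12). Conventional CD8 T cell genes moved with this difference, since the PBS males with more Eomes were Cd8-high and the PBS females were Cd8-low. The rise was measured within Cd8-low libraries alone (20.8-fold in KO FT and 21.5-fold in WT FT) and within Cd8-high libraries alone (4.06-fold and 5.2-fold), with an adjusted p of at most 1.76e-09. The 24 libraries held 16 to 760 counts of this gene. KO FT mice had less Eomes than WT FT mice after aGC (log2 -0.28 ± 0.08, adjusted p = 0.00277), at -0.34 in males (adjusted p = 0.0112) and -0.23 in females (adjusted p = 0.0843). The fit of Cd8-high libraries alone, which after aGC are these same females, did not pass either (adjusted p = 0.0823). After PBS the FTs gave -0.08 ± 0.11 (adjusted p = 0.665).

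Id2 (ENSMUSG00000020644.9, chromosome 12, 25093799 to 25097140) encodes an inhibitor of E proteins that effector T cells and innate lymphoid cells need, and per exon length it had the highest level of the 10. Id2 levels in KO FT females were 989, 924 and 913 CPM after aGC, against 2322, 2301 and 2217 CPM after PBS. In WT FT females Id2 stood at 747, 738 and 731 CPM after aGC, against 2202, 2252 and 2399 CPM after PBS. PBS females were the highest and aGC females the lowest groups under either FT. Id2 in KO FT males stood at 1439, 1662 and 1322 CPM after aGC, against 1547, 1555 and 1467 CPM after PBS, and in WT FT males at 1266, 1105 and 1208 CPM after aGC, against 1276, 1289 and 1337 CPM after PBS. Averaged over the sexes Id2 fell 1.58-fold in KO FT (log2 -0.66 ± 0.04, adjusted p = 3.8e-12) and 1.84-fold in WT FT (-0.88 ± 0.04, adjusted p = 1.01e-14). The fall was 2.42-fold in KO FT females and 3.09-fold in WT FT females, while the males gave log2 changes of -0.05 ± 0.06 and -0.12 ± 0.06 (adjusted p = 0.535 and 0.0735). Females against males differed by -1.23 ± 0.09 in KO FT and -1.50 ± 0.09 in WT FT (adjusted p = 1.12e-10 and 2.06e-12). Within Cd8-low libraries alone Id2 was lower with aGC by 0.62 in KO FT and 0.93 in WT FT on the log2 scale. Within Cd8-high libraries alone it was lower by 0.68 and 0.80 (adjusted p at most 6.88e-06). The averaged contrast weights the same groups equally, so it is not an estimate separate from these sets. After aGC KO FT mice had more Id2 than WT FT mice (0.33 ± 0.04, adjusted p = 9.92e-07), with no overlap in either sex. After PBS the difference was 0.11 ± 0.04 (adjusted p = 0.0507), which passed in males (0.23, adjusted p = 0.00409) and was -0.003 in females (adjusted p = 0.985).

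Id3 (ENSMUSG00000007872.3, chromosome 4, 136143497 to 136145755), the other E protein inhibitor of the set, restrains iNKT cell numbers in mice and is kept by naive and memory T cells. KO FT females had 132, 147 and 164 CPM after aGC, against 101, 107 and 107 CPM after PBS, and WT FT females had 144, 153 and 147 CPM after aGC, against 135, 138 and 134 CPM after PBS. KO FT males had 117, 112 and 126 CPM after aGC, against 161, 149 and 162 CPM after PBS, and WT FT males had 119, 132 and 116 CPM after aGC, against 183, 184 and 183 CPM after PBS. PBS males of either FT were the highest groups and PBS KO FT females the lowest. Id3 rose with aGC in KO FT females (log2 0.50 ± 0.07, adjusted p = 8.57e-07), gave 0.13 ± 0.07 in WT FT females (adjusted p = 0.0937), and fell in KO FT and WT FT males (-0.41 ± 0.07 and -0.59 ± 0.07, adjusted p = 1.34e-05 and 3.28e-08). The PBS males are Cd8-high and hold the most naive T cell markers, and the part of either was not tested. Averaged over the sexes Id3 did not pass in KO FT (0.05 ± 0.05, adjusted p = 0.43) and fell in WT FT (-0.23 ± 0.05, adjusted p = 0.000119). The WT FT value was -0.29 in Cd8-high libraries (adjusted p = 0.00143) and -0.14 in Cd8-low ones (adjusted p = 0.0612). After PBS KO FT mice had less Id3 than WT FT mice (-0.30 ± 0.05, adjusted p = 5.16e-05), in females at -0.37 and in males at -0.22, with no overlap in either sex. After aGC the FTs gave -0.02 ± 0.05 (adjusted p = 0.736).

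Bcl6 (ENSMUSG00000022508.5, chromosome 16, 23965052 to 23988852), whose promoter windows are printed above, encodes the repressor that follicular helper cells need. It had few counts, 45 to 217 per library. KO FT females had 11.3, 10.4 and 13.6 CPM after aGC, against 5.05, 4.45 and 3.83 CPM after PBS, and they were the highest group. KO FT males had 7.7, 4.34 and 5.54 CPM after aGC, against 4.42, 5.65 and 4 CPM after PBS. WT FT females had 5.33, 6.75 and 4.9 CPM after aGC, against 4.27, 3.62 and 4.94 CPM after PBS, and WT FT males had 9.24, 7.46 and 6.24 CPM after aGC, against 4.33, 4.38 and 5.63 CPM after PBS. The libraries overlapped in KO FT males and WT FT females. Bcl6 rose with aGC in KO FT (log2 0.85 ± 0.15, adjusted p = 3.8e-05) and in WT FT (0.54 ± 0.15, adjusted p = 0.00293), averaged over the sexes. Within sexes it passed in KO FT females (1.41 ± 0.21, adjusted p = 5.79e-06) and WT FT males (0.67 ± 0.21, adjusted p = 0.00768), the second lost without aGC WT FT male replicate 1 (0.54, adjusted p = 0.0511), and not in KO FT males (0.30) or WT FT females (0.41). The KO FT call was lost in Cd8-low libraries alone (0.41, adjusted p = 0.149) and the WT FT call in Cd8-high libraries alone (0.27, adjusted p = 0.235). After aGC KO FT females had 2.07-fold the Bcl6 of WT FT females (log2 1.05 ± 0.21, adjusted p = 0.000363), while the males gave -0.38 ± 0.21 (adjusted p = 0.147) and the mean over the sexes 0.33 ± 0.15 (adjusted p = 0.0668). The mean passed without aGC WT FT female replicate 2, aGC WT FT male replicate 1 or aGC KO FT male replicate 2 (0.40 to 0.41, adjusted p at most 0.0401). After PBS the FTs gave 0.02 ± 0.15 (adjusted p = 0.94).

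Prdm1 (ENSMUSG00000038151.13, chromosome 10, 44437177 to 44528501) encodes Blimp-1, a repressor of terminally differentiated T and B cells and a counterpart of BCL6. It also had few counts, 28 to 296 per library. KO FT females had 4.73, 4.79 and 5.44 CPM after aGC, against 6.63, 9.36 and 9.94 CPM after PBS, and KO FT males had 8.3, 5.67 and 6.01 CPM after aGC, against 11.5, 9.64 and 11.8 CPM after PBS. WT FT females had 4.7, 4.63 and 4.65 CPM after aGC, against 7.9, 7.58 and 7.1 CPM after PBS, and WT FT males had 2.07, 3.93 and 2.72 CPM after aGC, against 7.42, 7.37 and 7.73 CPM after PBS. Within each FT and sex the aGC libraries lay below the PBS libraries. The fall was 1.68-fold in KO FT (log2 -0.75 ± 0.13, adjusted p = 3.76e-05) and 2.04-fold in WT FT (-1.03 ± 0.14, adjusted p = 5.84e-07). In Cd8-low libraries alone the KO FT change was -0.37 and did not pass (adjusted p = 0.185), while the other 3 values in like sets lay between -1.36 and -0.67 and passed. KO FT mice had more Prdm1 than WT FT mice after aGC (0.64 ± 0.14, adjusted p = 0.000583), and all 6 KO FT libraries lay above all 6 WT FT libraries. That difference was 1.19 ± 0.20 in males (adjusted p = 4.4e-05) and 0.10 ± 0.20 in females (adjusted p = 0.715), and in Cd8-high libraries alone, which after aGC are the females, it did not pass. After PBS it was 0.37 ± 0.13 (adjusted p = 0.0342), and this call was lost in 9 of the 24 omissions of a single library (adjusted p = 0.0524 to 0.103), each of them the omission of a PBS library. The call was also lost in Cd8-low libraries alone, which after PBS are the females (0.19, adjusted p = 0.54).

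Maf (ENSMUSG00000055435.6, chromosome 8, 115682942 to 115707794) encodes c-MAF. Maf levels in KO FT females were 29.7, 28.3 and 27 CPM after aGC, against 40.4, 38 and 33.8 CPM after PBS. Levels in WT FT females were 36.9, 38.3 and 36.7 CPM after aGC, against 41.2, 38.6 and 40.1 CPM after PBS. Males moved the other way. KO FT males had 39.2, 40.9 and 37.2 CPM after aGC, against 22, 22.8 and 21.4 CPM after PBS, and WT FT males had 54.9, 50 and 50.6 CPM after aGC, against 20.1, 21.4 and 21.3 CPM after PBS. Maf fell in KO FT females (log2 -0.40 ± 0.08, adjusted p = 7.32e-05), gave -0.10 ± 0.07 in WT FT females (adjusted p = 0.243), and rose in KO FT males (0.82 ± 0.08, adjusted p = 2.95e-09) and WT FT males (1.31 ± 0.07, adjusted p = 2.33e-13). The 2 lowest groups, PBS males of either FT, were Cd8-high, and the part of the CD8 T cell genes was not tested. The averages were 0.21 ± 0.05 in KO FT (adjusted p = 0.0017) and 0.60 ± 0.05 in WT FT (adjusted p = 3.15e-10). In Cd8-low libraries alone the KO FT value was 0.07 (adjusted p = 0.487) and the WT FT value 0.38 (adjusted p = 0.000864), and in Cd8-high libraries alone they were 0.37 and 0.85, which passed. KO FT mice had less Maf than WT FT mice after aGC in both sexes (-0.40 in females and -0.41 in males, adjusted p = 0.00018 and 6.71e-05), with no overlap. After PBS the FTs gave -0.01 ± 0.05 (adjusted p = 0.935).

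Bhlhe40 (ENSMUSG00000030103.11, chromosome 6, 108660629 to 108666925) encodes a basic helix-loop-helix repressor that antigen receptor signals induce in T cells. Bhlhe40 levels in KO FT females were 154, 175 and 173 CPM after aGC, against 110, 105 and 125 CPM after PBS. KO FT males had 141, 128 and 154 CPM after aGC, against 94.4, 96.4 and 100 CPM after PBS. The WT FT groups lay farther apart. WT FT females had 244, 248 and 227 CPM after aGC, against 87.3, 82.8 and 89.4 CPM after PBS, and WT FT males had 127, 154 and 168 CPM after aGC, against 52.7, 57.4 and 61.8 CPM after PBS. The rise was 1.47-fold in KO FT (log2 0.55 ± 0.06, adjusted p = 5.19e-08) and 2.69-fold in WT FT (1.43 ± 0.06, adjusted p = 1.26e-15), with females and males at 0.56 and 0.54 in KO FT and 1.47 and 1.39 in WT FT. In Cd8-low libraries alone it was smaller, at 0.32 in KO FT and 0.80 in WT FT (adjusted p = 0.0127 and 5.89e-06), and in Cd8-high libraries alone it was 0.80 and 2.09. Females did not differ from males in this response beyond the error (0.02 ± 0.12 in KO FT and 0.09 ± 0.12 in WT FT, adjusted p = 0.899 and 0.611). After PBS all 6 KO FT libraries lay above all 6 WT FT libraries (0.58 ± 0.06, adjusted p = 6.93e-07). After aGC KO FT mice had less than WT FT mice (-0.30 ± 0.06, adjusted p = 0.000247), at -0.52 in females (adjusted p = 4.97e-05) and -0.09 in males (adjusted p = 0.442). In Cd8-low libraries alone, which after aGC are the males, the last difference was -0.09 and did not pass (adjusted p = 0.503).

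**Figure D4:**
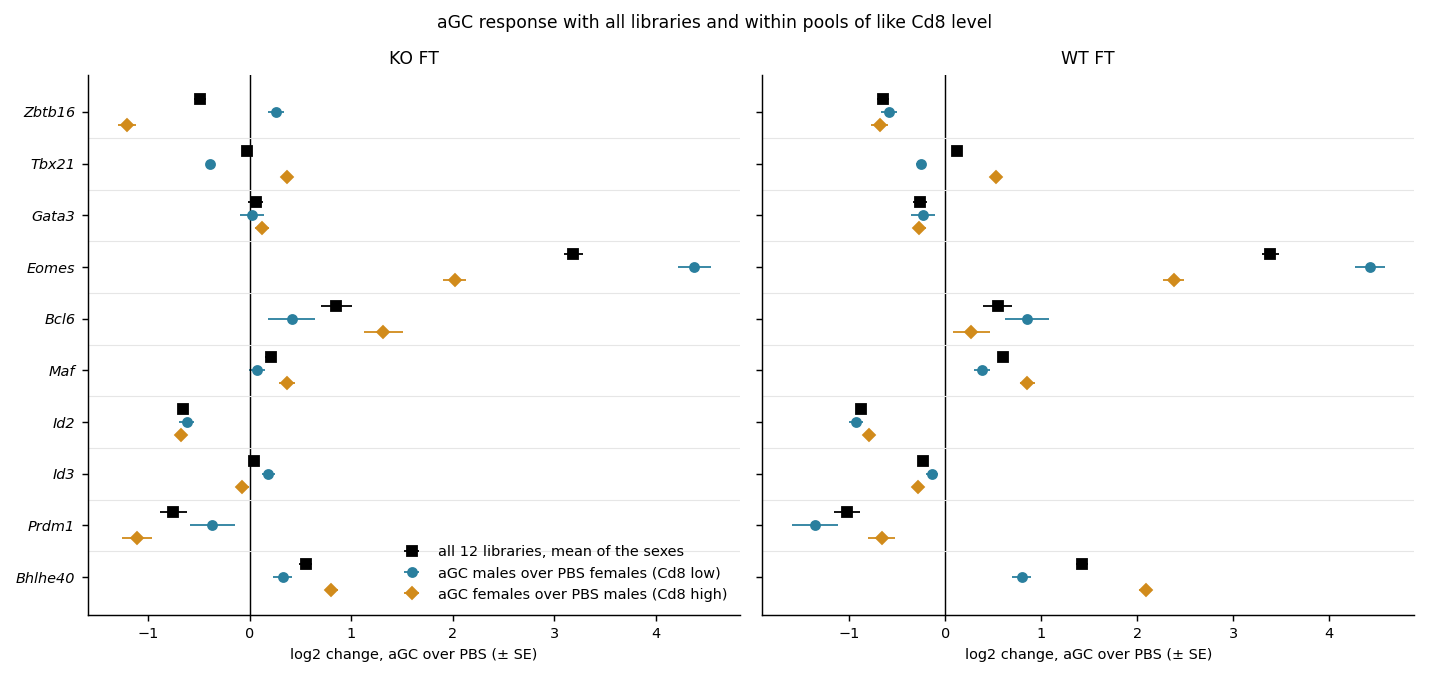
Log2 change for aGC over PBS (± SE) of each gene in KO FT (left) and WT FT (right), from all 12 libraries of an FT, from Cd8-low libraries alone and from Cd8-high libraries alone. All genes but Zbtb16 and Id3 in KO FT and Tbx21 under both FTs had the same sign in Cd8-low and Cd8-high libraries. The estimate from all libraries weights these sets equally and is not separate from them. Tbx21 was negative in Cd8-low and positive in Cd8-high libraries.

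The 2 FTs were then compared directly. After aGC 4 members were higher in KO FT mice (Id2, Zbtb16, Prdm1 and Gata3), 3 were lower (Maf, Eomes and Bhlhe40) and 3 did not pass, where 51.9% of all tested genes were called, 25.4% higher and 26.5% lower. After PBS 4 were higher (Bhlhe40, Zbtb16, Tbx21 and Prdm1), 1 was lower (Id3) and 5 did not pass, where 29.4% were called, 14.6% higher and 14.8% lower. In the mean over the sexes Zbtb16 and Prdm1 were thus higher with KO FT under either treatment, while Bhlhe40 was higher after PBS and lower after aGC. By sex, Zbtb16 and Prdm1 passed in males and not in females under either treatment. After aGC Bhlhe40 and Gata3 passed in females only, and Eomes in males only. The Prdm1 call after PBS was lost in 9 of the 24 omissions of a single library, and the Gata3 call after aGC in 17 of them. Non-overlapping FTs across all 12 libraries were seen for Prdm1 after aGC and Bhlhe40 after PBS, where 16.1% and 3.55% of tested genes were so separated. The median absolute log2 difference of the members was 0.32 after aGC and 0.16 after PBS, against 0.35 and 0.20 over all tested genes. The comparisons of treatments and of FTs share libraries and are not independent of each other.

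**Figure D5:**
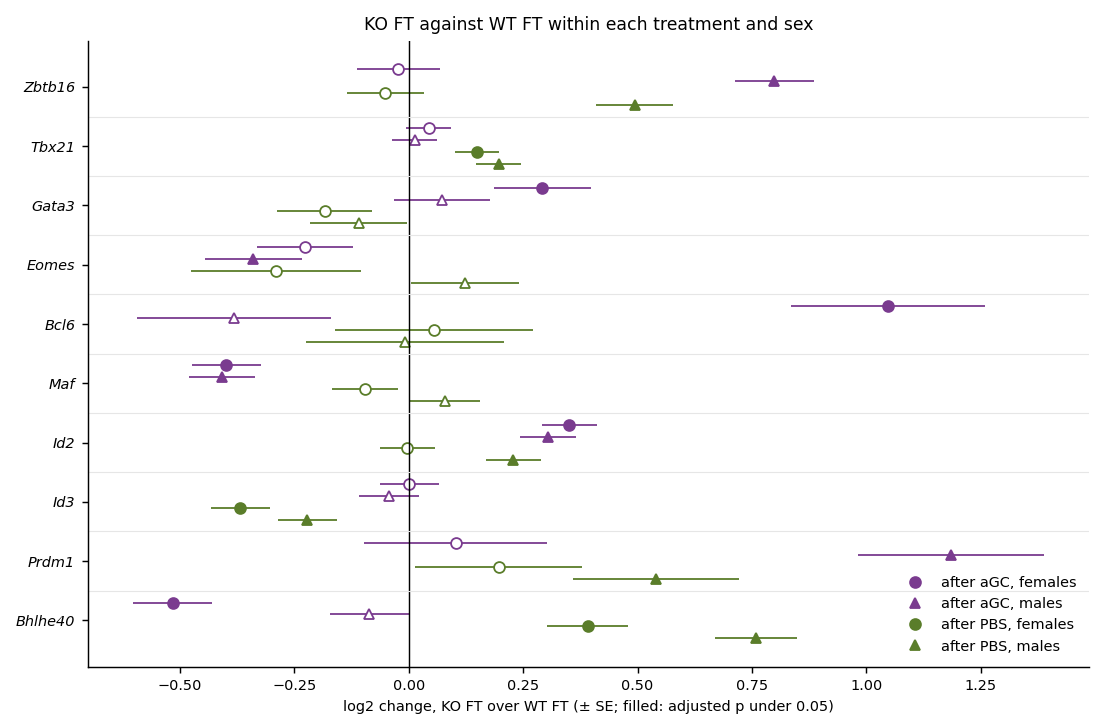
Log2 change of each gene for KO FT over WT FT (± SE) within aGC females, aGC males, PBS females and PBS males, filled where the adjusted p was under 0.05. Maf was lower with KO FT in aGC females and aGC males, at -0.40 and -0.41, and Bhlhe40 was higher in PBS females and PBS males, at 0.39 and 0.76.

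The response itself differed between the FTs for 6 of the 10 members, where 44.5% of tested genes were called, 21.9% higher and 22.6% lower. The response of KO FT minus that of WT FT was -0.88 ± 0.09 for Bhlhe40 (adjusted p = 5.46e-08), -0.40 ± 0.07 for Maf (adjusted p = 0.000144) and -0.14 ± 0.05 for Tbx21 (adjusted p = 0.0193). It was 0.33 ± 0.11 for Gata3 (adjusted p = 0.0137), 0.27 ± 0.07 for Id3 (adjusted p = 0.0015) and 0.22 ± 0.06 for Id2 (adjusted p = 0.00559). In the mean over the sexes Bhlhe40 and Maf thus rose less, and Id2 fell less, in KO FT mice than in WT FT mice. By sex, a rise of Maf was called in males only and a fall of Id2 in females only. For Bhlhe40 and Maf the difference passed within Cd8-low libraries alone (-0.47 and -0.31) and within Cd8-high libraries alone (-1.28 and -0.49). For Tbx21 it passed in neither set but was of like size (-0.13 in Cd8-low and -0.16 in Cd8-high libraries), and for Id2, Id3 and Gata3 in 1 of the 2. Cd8a itself gave 0.62 ± 0.08 in this comparison (adjusted p = 2.49e-06). Zbtb16 gave 0.17 ± 0.09 (adjusted p = 0.125) over all libraries, but 0.85 ± 0.12 in Cd8-low and -0.52 ± 0.13 in Cd8-high libraries, both of which passed. Prdm1 gave 0.28 ± 0.19 (adjusted p = 0.256), with 0.99 (adjusted p = 0.024) and -0.44 (adjusted p = 0.106) in the 2 sets. Bcl6 gave 0.31 ± 0.21 (adjusted p = 0.253), with -0.43 (adjusted p = 0.297) and 1.05 (adjusted p = 0.00842). Eomes gave -0.20 ± 0.13 (adjusted p = 0.242) and passed in neither set. With 1 profile per group none of the 10 passed, where 0 of the 15953 tested genes were called.

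Female and male responses differed for 8 members in KO FT, where 46.7% of tested genes were called, and for 7 in WT FT, where 47.7% were called. Eomes, Id3 and, in KO FT, Bcl6 had the more positive response in females, and Id2, Maf, Tbx21, Gata3 and Zbtb16 in males. Since the Cd8-high libraries were those of aGC females and PBS males, sex cannot be told apart from this split in these differences. Within the 4 groups by FT and sex the number of members called was 9 (KO FT females), 7 (KO FT males), 7 (WT FT females) and 8 (WT FT males), where 56.0%, 53.5%, 58.4% and 66.6% of tested genes were called.

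Compared per kilobase of exon, the mean level over the 8 groups was 602 CPM per kb for Id2, 169 for Tbx21, 77.9 for Id3, 44.4 for Gata3, 27.9 for Bhlhe40, 10.3 for Zbtb16, 4.9 for Eomes, 4.2 for Maf, 1.21 for Prdm1 and 0.916 for Bcl6. The ratio of highest to lowest group mean was 36.7 for Eomes, 4.18 for Bhlhe40, 3.78 for Prdm1, 3.09 for Id2, 2.74 for Bcl6, 2.48 for Maf, 2.35 for Zbtb16, 1.91 for Tbx21, 1.75 for Id3 and 1.54 for Gata3. In the order of group means, neighbouring groups overlapped in 6 of 7 steps for Zbtb16, Gata3 and Bcl6, in 4 for Id3 and Prdm1, in 3 for Tbx21, Eomes, Maf and Id2, and in 2 for Bhlhe40. The top of the order was held by WT FT females after aGC for Eomes and Bhlhe40, by KO FT females after aGC for Bcl6, and by WT FT males after aGC for Maf. PBS groups were highest for the other 6.

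Ratios of members with related roles were taken per exon length within a library and are given without a test. Bcl6 over Prdm1 was 0.638 to 3.72 in the 12 aGC libraries, against 0.282 to 0.634 in the 12 PBS libraries. Every aGC library thus stood above every PBS library, but the ranges nearly touched and both genes had few counts. Under aGC it was highest in KO FT females (1.8 to 2.08) and WT FT males (1.58 to 3.72). Tbx21 over Eomes, the 2 T-box genes, was 15 to 27.9 after aGC, against 463 to 886 in PBS females and 52.6 to 72.4 in PBS males. Id2 over Id3 was 3.55 to 5.5 in aGC females, against 12 to 16.9 in PBS females. In males it was 6.17 to 10.9 after aGC, against 5.13 to 7.68 after PBS, and these overlapped. Tbx21 over Gata3 ranged from 2.66 to 4.99 over all libraries.

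The genes with the most similar pattern over the 8 group means were found among 9618 genes, by the root mean square difference of the centred log2 profiles. For Eomes, whose own profile varied by 1.889 around its mean, they were Crtam (0.577), Angptl2 (0.695) and Tnfrsf4 (0.735). For Bhlhe40 they were Zfp239 (0.154), Pphln1 (0.160) and Ing5 (0.177), for Id2 Lysmd2 (0.120), Rora (0.130) and Tmem176a (0.132), and for Id3 Smc4 (0.094), Sphk2 (0.096) and Atp1b3 (0.104). Rora and Tmem176a are also on the list of iNKT17 genes below. Zbtb16 was nearest to Arhgap10 (0.128), Csnk1g1 (0.154) and Tmem176b (0.172), Tbx21 to Zfp101 (0.087), AW112010 (0.095) and Hnrnpul2 (0.104), and Gata3 to Asah1 (0.063), Mob4 (0.071) and Ube2q1 (0.072). Bcl6 was nearest to Pard6b (0.160), P4ha1 (0.180) and Nup160 (0.190), Maf to Sarnp (0.117), Lsm5 (0.121) and Bcl2a1d (0.128), and Prdm1 to Cbx7 (0.102), Coq8a (0.130) and Appl2 (0.133). Own variation around the mean was 0.435 for Zbtb16, 0.278 for Tbx21, 0.175 for Gata3, 0.422 for Maf, 0.240 for Id3, 0.530 for Id2, 0.454 for Bcl6, 0.559 for Prdm1 and 0.595 for Bhlhe40. The 3 genes named for a member were picked as the nearest of 9618 on these same means. Their small differences follow from that choice and are not a test of likeness.

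Genes around the members were read from lists chosen by name. Of the E proteins and other Id genes, 4 of 5 were tested, and 1 rose and 3 did not pass with aGC in KO FT, while 3 rose and 1 fell in WT FT. The change was led by Id1, an Id gene of low level, at 1.12 CPM after aGC, against 0.129 CPM after PBS, in KO FT, and 2.98 CPM, against 0.432 CPM, in WT FT (adjusted p = 6.36e-09 and 1.4e-09). The E protein genes Tcf3 and Tcf12, targets of ID2 and ID3, changed by -0.03 and -0.05 on the log2 scale in KO FT (adjusted p = 0.646 and 0.469) and by 0.16 and -0.24 in WT FT (adjusted p = 0.00609 and 0.000952). Of 21 tested other lineage factors of T cells, 7 rose and 10 fell in KO FT, and 5 rose and 11 fell in WT FT, with medians of -0.20 and -0.21 against -0.03 and -0.11 over all genes, where 58.1% and 68.4% of all tested genes were called. In females of KO FT and WT FT 10 rose under either FT and 8 and 7 fell, and in males 6 and 7 rose and 10 fell under either FT. Of all tested genes 56.0% and 58.4% were called in either direction in KO FT and WT FT females, and 53.5% and 66.6% in KO FT and WT FT males. By direction, edgeR with DESeq2's size factors called 4521 of 15953 genes higher and 4425 lower in KO FT females. The counts were 4610 and 4727 in WT FT females, 4346 and 4181 in KO FT males, and 5139 and 5476 in WT FT males. The sexes differ in the Cd8 split as above. The largest of the 4 with the lowest adjusted p was Nfil3, the gene of E4BP4, with 13.2 CPM after aGC, against 3.73 CPM after PBS, in KO FT, and 17.7 CPM, against 2.18 CPM, in WT FT (log2 1.86 ± 0.13 and 3.09 ± 0.13). Rora, a factor of iNKT17 cells and innate lymphoid cells, fell by 0.92 and 0.90 on the log2 scale, Zfp683, the gene of HOBIT, by 0.78 and 1.00, and each was lower in both sexes. Tcf7, the gene of the naive and memory factor TCF1 and also a naive marker, fell by 0.31 and 0.59 in the mean over the sexes, but by sex it followed the Cd8 split. In females it averaged 560 CPM after aGC, against 431 CPM after PBS, in KO FT, and 501 CPM, against 480 CPM, in WT FT. In males it averaged 376 CPM, against 751 CPM, in KO FT, and 297 CPM, against 703 CPM, in WT FT.

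The effector genes of the lineages split within lists. Of the 15 iNKT1 genes, 4 rose and 8 fell with aGC in KO FT and 5 rose and 9 fell in WT FT, where 28.1% and 30.9% of all tested genes rose and 30.1% and 37.5% fell; these shares are the background of the aGC counts of the other lists too. The chemokine receptor gene Cxcr3 was among those that fell, with 450 CPM after aGC, against 849 CPM after PBS, in KO FT, and 347 CPM, against 790 CPM, in WT FT. The cytokine genes Ccl4 and Ifng were among those that rose (log2 4.01 and 2.08 in KO FT, 4.74 and 2.90 in WT FT). The chemokine gene Xcl1 rose too and averaged 133 CPM after aGC, against 70.7 CPM after PBS, in KO FT, and 161 CPM, against 63.1 CPM, in WT FT. Of 11 tested iNKT2 genes, 7 rose and 4 fell in KO FT and 6 rose and 2 fell in WT FT. Plac8 of this list fell in KO FT, with 118 CPM after aGC, against 189 CPM after PBS, and rose in WT FT, with 148 CPM, against 126 CPM (log2 -0.64 and 0.28, adjusted p = 2.37e-10 and 5.39e-05).

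Of 13 tested iNKT17 genes, none rose and 11 fell in KO FT, and 2 rose and 10 fell in WT FT. Within sexes 12 fell in females and 7 in males under either FT. Of all tested genes 56.0% and 58.4% were called in either direction in KO FT and WT FT females, and 53.5% and 66.6% in KO FT and WT FT males. By direction, edgeR with DESeq2's size factors called 4425 of 15953 genes lower in KO FT females and 4727 in WT FT females. It called 4181 lower in KO FT males and 5476 in WT FT males. Females and males differ here in the Cd8 split too, and its part in the counts of this list was not tested. KO FT mice were higher than WT FT mice for 9 of them after aGC and 7 after PBS, and lower for none, where 25.4% and 14.6% of all tested genes were higher. Tmem176a, a membrane protein gene that ROR gamma t positive cells express, averaged 37.3 CPM after aGC, against 58.7 CPM after PBS, in KO FT, and 27.5 CPM, against 60.1 CPM, in WT FT. Of the 10 follicular helper-like genes, 7 rose and 1 fell in KO FT and 8 rose and 1 fell in WT FT, and KO FT mice were lower than WT FT mice for 6 of the 10 after aGC, where 26.5% of all tested genes were lower. Pou2af1, a transcriptional coactivator gene of this list, averaged 4.62 CPM after aGC, against 1.14 CPM after PBS, in KO FT, and 4.31 CPM, against 2.15 CPM, in WT FT. Of the 11 genes of interleukin 10 producing and regulatory iNKT cells, 5 rose and 5 fell in KO FT and 4 rose and 4 fell in WT FT. Il27ra, the interleukin 27 receptor gene, fell by 0.24 and 0.69 on the log2 scale, and Nt5e, the gene of the ectoenzyme CD73, by 0.36 and 0.57, in KO FT and WT FT. Receptor transcripts that define the cells were also lower with aGC, Trav11 by 0.73 and 0.68 and Traj18 by 0.67 and 0.71 on the log2 scale. The lists share genes with each other, Nfil3 and Rora among them.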

How the data were processed

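RNA-seq of sorted iNKT cells gave 24 libraries in 8 groups, assigned from the labels. Libraries were made by Nextera XT tagmentation, per the labels' protocols, which keeps no strand; exon-overlapping genes of the members held at most 0.69 CPM. The deposited values are estimated counts per gene, in whole numbers, made with kallisto on GRCm38 (mm10), per the submitters' processing notes; version and annotation: not given in the sources used here. Symbols, positions and exon lengths came from the GENCODE mouse annotation in the box, which held 55154 of the 55335 identifiers.

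Genes were kept by filterByExpr (minimum count 10, minimum total 15), which left 15953. edgeR's quasi-likelihood test was fitted to all libraries with TMM scaling and 8 group means (16 residual degrees of freedom), two-sided, with Benjamini-Hochberg adjustment over all tested genes at 0.05 and no fold threshold. Averaged contrasts weight the sexes equally, and SE is the log2 change over the square root of F. Levels are CPM. Alternatives were DESeq2, its size factors, no filter, a replicate block, each library left out, the Cd8-low or Cd8-high groups alone, and 1 summed profile per group (3 residual degrees of freedom). Software was edgeR 4.0.16 and DESeq2 1.42.0 with limma 3.58.1 in R 4.3.3, and numpy 2.4.6, pandas 2.3.3 and matplotlib 3.10.9 in Python 3.11.15.

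The members and the 15 gene lists were chosen with earlier results of these data known. The text names the members, for each the 3 genes of at least 5 CPM with the nearest pattern, up to 4 genes of a list with the lowest adjusted p, and markers of other cell types. Replicates of a group were compared: their counts differed by more than counting error (chi-square per degree of freedom 3.96 to 15.3 in 24 pairs), so none was merged.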

Additional observations from a re-analysis of the deposited data

Results flagged for a closer look

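For 6 of the 10 members the response to aGC differed between the transplants by the test of the difference itself. Of all tested genes 44.5% were called in this comparison. On the log2 scale the response of KO FT minus that of WT FT was -0.88 for Bhlhe40, -0.40 for Maf, -0.14 for Tbx21, 0.33 for Gata3, 0.27 for Id3 and 0.22 for Id2 (edgeR, adjusted p at most 0.0193). The Bhlhe40 response was positive in each of the 4 groups by FT and sex, and its difference had the same sign in females and in males. With Cd8-low or Cd8-high libraries alone, Tbx21 passed in neither set, Id2 and Id3 in Cd8-low only, and Gata3 in Cd8-high only. With 1 profile per group no tested gene passed.

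The response to aGC also differed between the sexes by that kind of test, and here Cd8a and Cd8b1 differ between the same libraries, so sex and the CD8 T cell genes cannot be told apart. In KO FT mice the female minus the male response was 3.50 for Eomes, 1.10 for Bcl6, 0.91 for Id3, -0.42 for Gata3, -0.58 for Zbtb16, -0.72 for Tbx21, -1.22 for Maf and -1.23 for Id2 (adjusted p at most 0.0246). In WT FT mice it was 2.98 for Eomes, 0.72 for Id3, -0.30 for Zbtb16, -0.71 for Gata3, -0.80 for Tbx21, -1.41 for Maf and -1.50 for Id2 (adjusted p at most 0.0471). Of all tested genes 46.7% were called for this difference in KO FT and 47.7% in WT FT. With 3 libraries in a group, single libraries were not tested as outliers.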

How the results depend on the processing

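Counts of called members stayed within 1.5 times under DESeq2, its size factors, no filter, the replicate block and each omitted library. Single calls did change: without the filter, 9 of 150 member results lost their call and 3 gained a call. With 1 profile per group they were 0 for aGC in KO FT, 1 for aGC in WT FT, and 0 for the FTs after PBS, the FTs after aGC and the response difference. This fit has 8 profiles in place of 24 libraries. It called 0 of the 15953 tested genes in the FT comparisons and the response difference. Without PBS males and aGC females (Cd8-low libraries alone) 3 members were called for the FTs after PBS, where 2036 of 14358 tested genes were called higher and 2134 lower. In the replicate block, Gata3 for the FTs after aGC (0.175, adjusted p = 0.0529) and Zbtb16 for the sexes in WT FT (adjusted p = 0.0604) were lost and no other call changed. Libraries of the same number share only a number: their deviations correlated at -0.0552 to 0.0273 in 24 pairs, and 7 of 24 libraries correlated best with their own number.

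Signs turned in the following log2 values, and the cause was not tested. In Cd8-low libraries alone: Zbtb16 0.263 (aGC, KO FT), -0.052 (FTs, PBS); Tbx21 -0.259 (aGC, WT FT); Id2 -0.005 (FTs, PBS); Bcl6 -0.381 (FTs, aGC), -0.434 (response difference). In Cd8-high libraries alone (without PBS females and aGC males): Tbx21 0.371 and Id3 -0.071 (aGC, KO FT); Eomes 0.129, Bcl6 -0.000 and Maf 0.086 (FTs, PBS); Zbtb16 -0.023 and Id3 0.001 (FTs, aGC); Zbtb16 -0.524 and Prdm1 -0.443 (response difference). With 1 profile per group Eomes was 0.033 (FTs, PBS), and without the filter Id3 was 0.011 (FTs, aGC) and Bhlhe40 -0.076 (sexes, KO FT). Within sexes, Id2 was 0.011 with size factors, 0.006 without the filter and 0.011 with DESeq2 (FTs, PBS females); Zbtb16 was 0.002, 0.010 and 0.002 under the same settings (FTs, aGC females); Tbx21 was -0.012 with size factors and with DESeq2 (FTs, aGC males); and Id3 was -0.002 in the replicate block (FTs, aGC females).

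Leaving out single libraries turned no called value. Values that had not passed ranged across 0: Tbx21 -0.050 to 0.004 and Gata3 -0.003 to 0.122 (aGC, KO FT); Id2 -0.140 to 0.028 (KO FT males); Bcl6 -0.065 to 0.090 and Maf -0.042 to 0.026 (FTs, PBS); Bcl6 -0.052 to 0.159 and Id2 -0.028 to 0.035 (FTs, PBS females); Bcl6 -0.184 to 0.124 (FTs, PBS males); Id3 -0.068 to 0.013 (FTs, aGC); Zbtb16 -0.093 to 0.058 and Id3 -0.091 to 0.071 (FTs, aGC females); Tbx21 -0.014 to 0.019, Gata3 -0.094 to 0.156 and Id3 -0.097 to 0.012 (FTs, aGC males); Prdm1 -0.236 to 0.131 and Bhlhe40 -0.035 to 0.095 (sexes, KO FT); Bhlhe40 -0.031 to 0.161 (sexes, WT FT). The Zbtb16 difference between the sexes in WT FT was lost in 12 of 24 omissions and Tbx21 for the FTs in PBS females in 8. Of 3600 values with a library left out, 3456 kept direction and call. Depth limits Bcl6, Prdm1 and, in PBS females, Eomes, whose counts were lowest.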
